A study of Homo sapiens with 4 samples.

Results

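A list of 10 genes of the epithelial-mesenchymal transition (EMT) was followed in A375 melanoma cells given octanoate. They are the transcription factors ZEB1, ZEB2, SNAI1, SNAI2 and TWIST1, the cadherins CDH1, CDH2 and CDH3, the intermediate filament protein VIM and the matrix protein FN1. The genes were chosen by symbol, with earlier results of these data known, so the list is not a blind choice. All 10 were found among the 56832 genes of the deposited table of normalised counts. All 10 also passed the filter on low values (a 4-library mean of 10 or more normalised counts), as did 20250 genes in all, and were tested. A375 is an established human cell line from a melanoma, and the labels give its genotype as WT in every library. The cells were grown in DMEM with 10% FBS and were kept for 48 h with either 1 mM octanoate, a saturated fatty acid of medium chain length, or the vehicle, isopropanol. RNA was sequenced in 2 libraries per group, named here vehicle 1 and 2 and octanoate 1 and 2. The submitters describe the aim as expression profiling for induced targets and for signatures of medium-chain fatty acids.

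In an EMT, epithelial cells lose E-cadherin junctions and gain a migratory, mesenchymal state. The Snail, ZEB and Twist proteins drive this switch: they bind E-box sequences and repress epithelial genes such as CDH1, while N-cadherin, vimentin and fibronectin increase. Melanoma cells come from the neural crest rather than an epithelium, and there ZEB2 and SNAI2 are known from the melanocytic, differentiated state and ZEB1 and TWIST1 from the invasive, less differentiated one.

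The 10 genes did not move in a common direction. Of the 10, ZEB1, SNAI1, SNAI2 and CDH3 rose and ZEB2, TWIST1, CDH2 and FN1 fell, while CDH1 and VIM did not pass the test (limma, Benjamini-Hochberg adjusted p under 0.05). These 8 calls stand beside 29.9% of all tested genes called, 16.2% higher and 13.7% lower. Of 9003 tested genes that averaged 1000 or more normalised counts, 38.1% were called, and 6 of the 7 members at that level were. The groups did not overlap for the same 8 genes, as for 63.1% of all tested genes (32.6% higher and 30.5% lower in octanoate). The median log2 difference, octanoate minus vehicle on the log2(normalised count + 1) scale, was -0.08 over the 10 genes and 0.01 over all tested genes. The median absolute difference was 0.29 over the 10 genes and 0.19 over all tested genes. Only CDH3 changed by more than 2-fold.

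The labels do not say whether the libraries came from separate cultures, so the p-values measure the spread between these libraries, which may be technical. The smallest two-sided p of an exact permutation test with 2 libraries per group is 0.333, so every p printed here comes from the model across all genes. The limma fit shares variance information along a trend with expression level. Without that trend 8.02% of genes were called and CDH3 was the only one of the 10 that passed, with an adjusted p of 0.035 (range over 16 alternatives 9.6e-12 to 0.035). With no filter on low values 5.97% of genes were called and ZEB2, CDH2, CDH3 and FN1 passed. On the recovered reads edgeR called 29.4% of genes and the same number of members, 8, and DESeq2 26.1% and 6. With the replicate number as a block the share was 41.4% and the members' count 8. Library depth was 67785956 to 78005035 reads. Replicates differed more than counting error alone, with a chi-square per degree of freedom of 4.77 within the vehicle pair and 6.5 within the octanoate pair. The labelled cell type was checked against 10 melanoma markers. SOX10 stood at 34072 to 41363 normalised counts in the 4 libraries and NES at 38121 to 43556. MITF stood at 2414 to 3533 and S100B at 1746 to 4234, both lower in octanoate. The pigment gene TYR was at no more than 3.93 and MLANA at 34.9 to 52.0. PMEL, DCT, MIA and S100A1 were low as well, at 10.6 to 167.

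**Figure D1:**
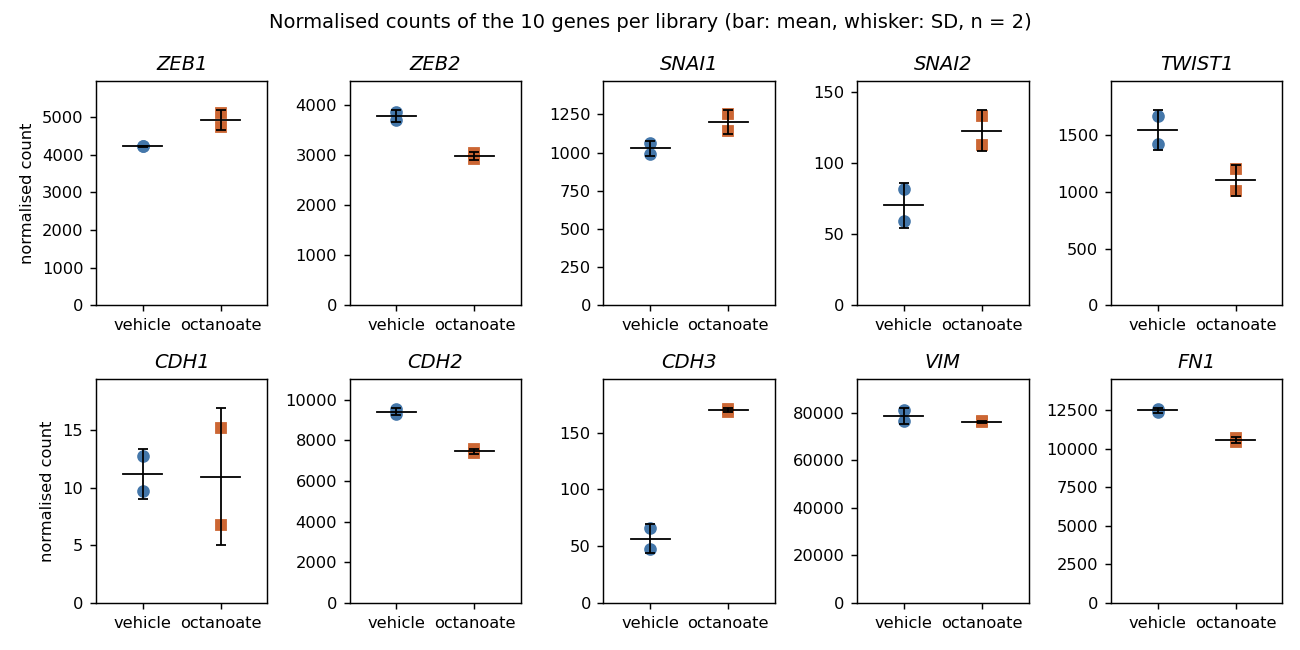
Normalised counts of the 10 genes in each library, with 1 panel per gene, vehicle in blue circles and octanoate in orange squares; the horizontal bar is the mean and the whisker the SD of 2 libraries. The y axes start at 0 and differ between panels. The groups overlap for CDH1 and VIM only.

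The plot of normalised counts per library shows the 10 genes side by side. The groups are far apart, relative to their spread, for CDH3, CDH2, FN1 and ZEB2. They are close for SNAI1, and for CDH1 the lowest and the highest value both belong to the octanoate group.

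The 2 ZEB genes moved in opposite directions. ZEB1 and ZEB2 encode zinc-finger and homeodomain repressors of CDH1. ZEB1 had 4214 and 4229 normalised counts in vehicle and 4720 and 5097 in octanoate. Both octanoate libraries were above both vehicle libraries, and the difference was 0.22 ± 0.06 (log2, SE) with a limma adjusted p of 0.00805, or 1.16-fold. The 2 vehicle libraries nearly coincided and the octanoate libraries did not, so the call rested on octanoate 2: without it the adjusted p was 0.152 at a difference of 0.16 (range over 16 alternatives 3.17e-05 to 0.153). ZEB2 had 3685 and 3852 normalised counts in vehicle and 2917 and 3026 in octanoate. Both octanoate libraries lay below both vehicle libraries, by 0.34 ± 0.06 (log2 -0.34, limma adjusted p = 0.00013), and ZEB2 kept this call when each of the 4 libraries was left out in turn. In bulk RNA of this kind, fewer cells that express a gene and less RNA per cell cannot be told apart.

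Because ZEB1 rose and ZEB2 fell, their ratio shifted within each library. Per kilobase of exon (the summed length of all annotated exons of the gene), ZEB1 stood at 3.31 and 3.18 times ZEB2 in vehicle and at 4.69 and 4.88 times in octanoate. The ratio was thus higher in both octanoate libraries, 1.47 times as high on average. Its absolute level depends on the length used: with the longest transcript in place of the summed exons the mean ratio was 1.71 in vehicle and 2.52 in octanoate.

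ZEB1 lies on chromosome 10 (GRCh38, 31318495 to 31529814, plus strand) and shares 366 bases of exon with ZEB1-AS1, a noncoding RNA read from the other strand. ZEB1-AS1 had 202 and 203 normalised counts in vehicle and 313 and 309 in octanoate. It rose with ZEB1, by 0.61 ± 0.12 (log2, SE; limma adjusted p = 0.000269), and kept its call under all 16 alternatives. The strand setting of the counting is not given in the sources used here, so reads from the shared exon bases cannot be assigned to either gene. ZEB2, on chromosome 2 (144364364 to 144524583, minus strand), overlaps ZEB2-AS1 over 1299 exon bases, but ZEB2-AS1 had fewer than 2 normalised counts in every library.

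The start of ZEB1 is shown for its match to an E-box. Among the members with a RefSeq promoter window (250 bases before to 50 after a start), ZEB1 alone held a match there. The motif was searched as CAGGTG or CACCTG, which are reverse complements of each other, so a match on 1 strand is a match on both. Other forms of the E-box were not searched. Promoter windows were found for 5 of the 10 genes, 12 windows in all. The 2 windows with a match both belonged to ZEB1, which has 7, and those of ZEB2, CDH2, VIM and FN1 held none. Over all 35116 windows 20.6% held a match. Of the 14 genes of the epithelial list below that have a window 9 held at least 1, beside 24.1% of all 27305 symbols. A symbol with more windows has more chances. The 9 include CLDN3, CRB3 and RAB25, which were below the filter on low values, while the window of CLDN4 held none. Desmoplakin (DSP), a desmosomal gene of the epithelial list below, is shown beside ZEB1, with the stretch that lies before its annotated exon. The sequences are RefSeq's on GRCh38.p14, 5′ to 3′ on the plus strand, which is the strand of both genes, and the capitals mark the E-box.
ZEB1 chr10:31318167-31318416: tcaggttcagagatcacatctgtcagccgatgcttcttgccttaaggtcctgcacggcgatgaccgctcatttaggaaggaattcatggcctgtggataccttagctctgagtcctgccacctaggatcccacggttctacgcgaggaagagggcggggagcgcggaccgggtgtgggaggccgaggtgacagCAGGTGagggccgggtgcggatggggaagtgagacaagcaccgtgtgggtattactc
DSP chr6:7541421-7541574: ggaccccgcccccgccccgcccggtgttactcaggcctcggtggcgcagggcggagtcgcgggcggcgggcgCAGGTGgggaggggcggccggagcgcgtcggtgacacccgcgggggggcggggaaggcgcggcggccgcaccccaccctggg
The E-box in the ZEB1 stretch begins 57 bases before the start, and another ZEB1 window held 3. The DSP window held 2, at 178 and 85 bases before the start, of which the first is printed. A match in these letters is a description of the sequence and no measurement of binding.

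Both Snail genes rose. SNAI1, the factor named Snail, had 1060 and 993 normalised counts in vehicle and 1254 and 1144 in octanoate. The groups did not overlap, but the nearest values, 1060 and 1144, were close. The difference was 0.22 ± 0.08 (log2, SE), 1.17-fold, with a limma adjusted p of 0.0314. The call ended without vehicle 1 (0.0518), without vehicle 2 (0.208) and without octanoate 1 (0.276), and with DESeq2 on the recovered reads (0.111), within a range over 16 alternatives of 0.00197 to 0.276. In the authors' deposited table SNAI1 was the 1 gene of the 8 that was not called, with an adjusted p of 0.101.

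SNAI2, the factor named Slug, had 81.5 and 59.1 normalised counts in vehicle and 133 and 113 in octanoate, from 83, 61, 138 and 104 reads. Both octanoate values were above both vehicle values. The rise was 0.81 ± 0.19 (log2, SE), 1.75-fold, with a limma adjusted p of 0.00221. Without vehicle 2, the lower of the vehicle libraries, the difference was 0.58 and the adjusted p 0.0509, and DESeq2 on the recovered reads gave 0.055 (range over 16 alternatives 0.000144 to 0.101). SNAI2 was thus a low-abundance gene with the largest relative change among the 5 factors in this fit.

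TWIST1 moved the other way. This basic helix-loop-helix factor had 1671 and 1421 normalised counts in vehicle and 1201 and 1007 in octanoate. All octanoate values were below all vehicle values, although the libraries of each group differed by more than those of ZEB2. The fall was 0.49 ± 0.09 (log2 -0.49, SE; limma adjusted p = 0.000134), to 0.714 of the vehicle level, and it kept its call when each library was left out in turn. Per kilobase of exon, TWIST1 stood at 34.2 and 40.1 times SNAI2 in vehicle and at 15.1 and 14.9 times in octanoate.

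**Figure D2:**
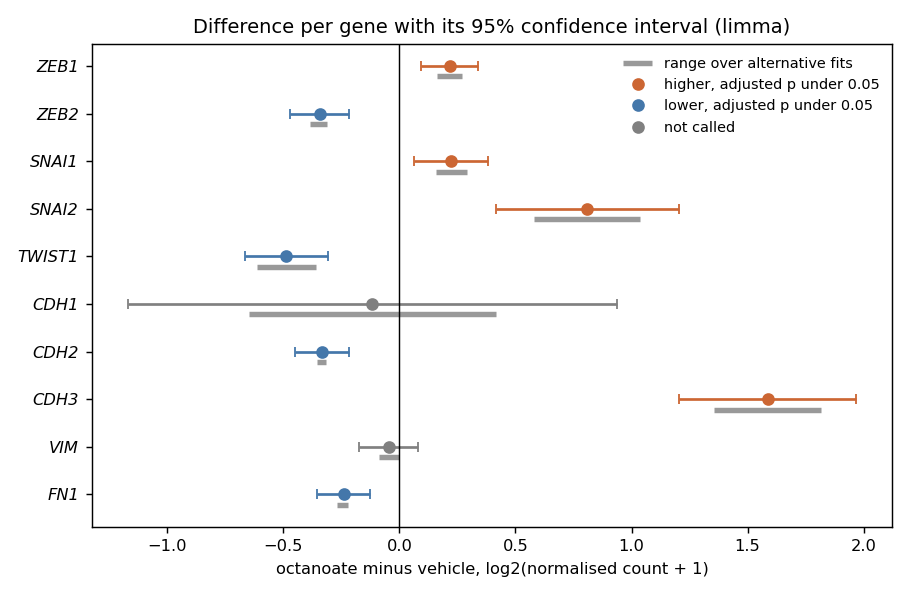
Difference of each gene, octanoate minus vehicle, on the log2(normalised count + 1) scale, with its 95% confidence interval from limma; orange marks genes called higher, blue genes called lower and grey genes not called, and the grey bar under each point spans the values of that gene over its alternative fits. CDH3 lies farthest to the right at 1.59, TWIST1 farthest to the left at -0.49, and the interval of CDH1 is the widest, from -1.17 to 0.94.

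The plot of differences with intervals sets the factors above the junction, filament and matrix genes. The intervals of ZEB1 and SNAI1 lie near 0, those of SNAI2 and CDH3 are wide because their counts are low, and the interval of VIM is narrow and spans 0.

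Of the 3 cadherins CDH2 fell, CDH3 rose and CDH1 did not pass the test. CDH1 encodes E-cadherin, the adhesion molecule of epithelial junctions. CDH1 had 12.8 and 9.69 normalised counts in vehicle and 6.74 and 15.2 in octanoate, from 13, 10, 7 and 14 reads. The octanoate values lay on both sides of the vehicle values. The difference was -0.12 (log2, 95% confidence interval -1.17 to 0.94, limma adjusted p = 0.894). At 7 to 14 reads, this interval excluded neither a fall nor a rise of close to 2-fold. The sign of the difference turned without vehicle 1 (0.07) and without octanoate 1 (0.42).

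CDH2 encodes N-cadherin, the mesenchymal and neural cadherin, and had 9534 and 9288 normalised counts in vehicle and 7375 and 7555 in octanoate. The libraries of each group were close together and the groups far apart. The fall was 0.33 ± 0.06 (log2 -0.33, SE; limma adjusted p = 6.13e-05), to 0.793 of its vehicle level, and the call held when each library was left out in turn. Per kilobase of exon, CDH2 still stood at 932 and 1196 times CDH1 in vehicle and at 1366 and 621 times in octanoate, ranges that overlap.

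CDH3, which encodes P-cadherin, was the member with the largest and firmest change. It had 65.8 and 47.5 normalised counts in vehicle and 168 and 171 in octanoate, from 67, 49, 175 and 158 reads. Both octanoate libraries were more than 2 times as high as either vehicle library. The rise was 1.59 ± 0.18 (log2, SE), or 200.3% above vehicle, with a limma adjusted p of 3.58e-07, and 1.31% of all tested genes had a larger absolute difference. CDH3 was called under all 16 alternatives. Per kilobase of exon, CDH2 stood at 183 and 246 times CDH3 in vehicle and at 55.2 and 55.6 times in octanoate. N-cadherin RNA therefore still exceeded P-cadherin RNA in every library.

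CDH3 and CDH1 are neighbours on chromosome 16 and are read in the same direction. CDH3 spans 68636189 to 68722616 and CDH1 68737225 to 68835548 on the plus strand of GRCh38, with 14608 bases between them. Of this pair CDH3 passed the test and CDH1 did not. The difference between their changes was not tested. CDH3 shares 694 exon bases, and CDH1 347, with noncoding RNAs annotated on the other strand that were not matched by name in the table. Transcripts of CDH3 also hold stretches of 101 to 147 bases with at least 95% identity to 5 other genes, TUBB4A and ZNF283 among them, and how the counting treated such reads is not given in the sources used here. In the same sequence search ZEB2, CDH1, CDH2 and VIM shared such a stretch with an RNA of their own opposite strand only. The search returned no stretch for the other 5 genes. By exon position, however, ZEB1 shares 366 bases with ZEB1-AS1, and TWIST1 shares 141 with an RNA annotated on the other strand. A gene without a returned stretch can therefore still share exon bases with another gene.

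**Figure D3:**
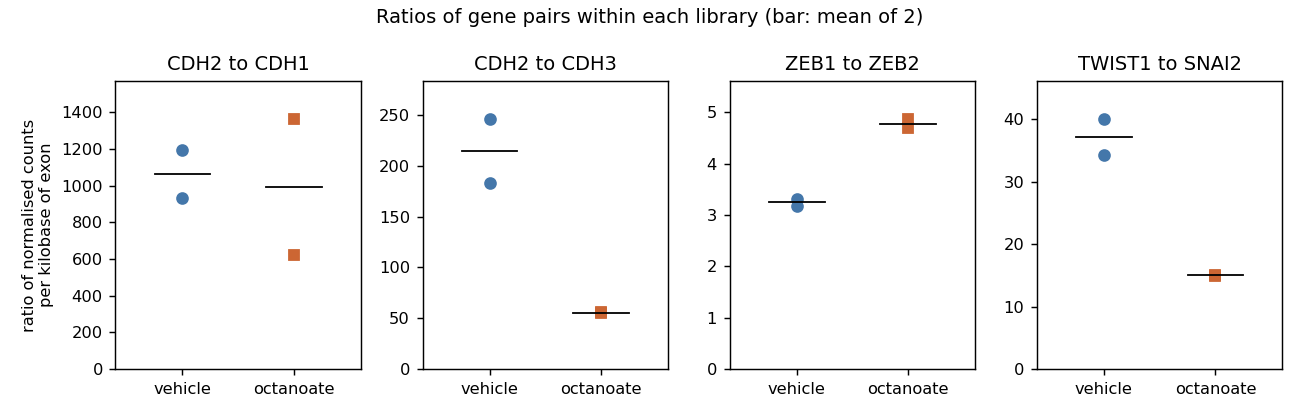
Ratios of pairs of the genes within each library, computed from normalised counts per kilobase of summed exon; blue circles are vehicle, orange squares octanoate and the bar is the mean of 2 libraries. The CDH2 to CDH3 and TWIST1 to SNAI2 ratios are lower and the ZEB1 to ZEB2 ratio is higher in both octanoate libraries, and the CDH2 to CDH1 ratio overlaps between the groups.

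The plot of ratios within libraries uses no scaling between libraries, since each value divides 2 genes of the same library. The CDH2 to CDH3 ratio was 0.258 and the TWIST1 to SNAI2 ratio 0.403 of its vehicle mean.

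VIM and FN1 are mesenchymal effectors rather than regulators. VIM encodes vimentin, the main intermediate filament of mesenchymal cells, and had 80985 and 76368 normalised counts in vehicle and 76507 and 75841 in octanoate. Octanoate 1 lay between the vehicle values. The difference was -0.05 (log2, 95% confidence interval -0.17 to 0.08, limma adjusted p = 0.630). FN1 encodes fibronectin, and had 12586 and 12367 normalised counts in vehicle and 10441 and 10695 in octanoate. Both octanoate values were below both vehicle values. The fall was 0.24 ± 0.06 (log2 -0.24, SE; limma adjusted p = 0.00188), to 0.847 of the vehicle level, and it too kept its call with each library left out in turn.

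Levels were compared between genes per kilobase of summed exon. In vehicle the order was VIM (15253 normalised counts per kilobase), CDH2 (1901), TWIST1 (760), FN1 (721), SNAI1 (609), ZEB1 (488), ZEB2 (150), SNAI2 (20.7), CDH3 (9.08) and CDH1 (1.82). TWIST1 and FN1 overlapped between libraries and cannot be ordered. In octanoate SNAI1 (711) stood in the third place, followed by FN1 (610), ZEB1 (567) and TWIST1 (543). ZEB1 and TWIST1 overlapped there. The first 2 places and the last 4 were the same in both groups. With the longest transcript as the length, FN1 took the third place in both groups, TWIST1 went from the fourth place to the sixth, and ZEB1 stood above SNAI1.

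The authors' deposited table gave the same sign as the fit above for all 10 genes. It called 7 of them at an adjusted p under 0.05, with 12.9% of its 33533 genes called. That set is wider than the 20250 genes tested here, so this share and the 29.9% above are not alike. Both results rest on the same libraries. The log2 fold change in the authors' deposited table was 1.59 for CDH3, 0.81 for SNAI2 and -0.48 for TWIST1.

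**Figure D4:**
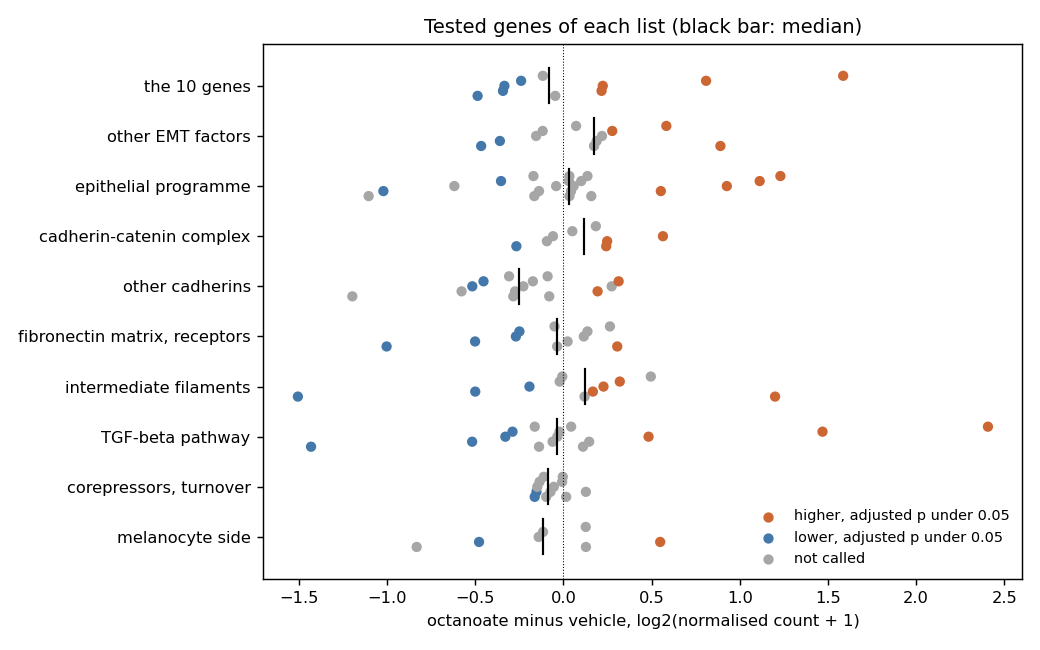
Difference of every tested gene of the 10 genes and of 9 related lists (the overlapping noncoding RNAs, with 1 tested gene, are not drawn), octanoate minus vehicle on the log2(normalised count + 1) scale, with 1 row per list; orange points are called higher, blue called lower, grey not called, and the black bar is the median of the list. Medians run from -0.25 for the other cadherins to 0.17 for the other EMT factors, and every row drawn except the corepressors holds calls on both sides of 0.

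The plot of gene lists sets the 10 genes beside related groups, given as counts from the same fit against the 29.9% of all tested genes. Among 11 tested factors of EMT other than the 5 above, 3 rose and 2 fell, with a median of 0.17. HMGA2, an architectural chromatin protein, had 11236 and 11629 normalised counts in vehicle and 16885 and 17383 in octanoate (log2 0.58, limma adjusted p = 1.64e-08). FOXC2, a forkhead factor, went from 479 and 380 to 896 and 699 (0.89, adjusted p = 1.47e-06), while its relative FOXC1 fell by 0.36 (adjusted p = 0.0011). PRRX1, a homeobox factor, fell from 10166 and 9996 to 7230 and 7366, by 0.47 (adjusted p = 5.72e-07). SOX4 also rose (0.28, adjusted p = 0.003) and lies outside the naming rule, having been chosen after its values were seen. Without vehicle 1 FOXC1 had an adjusted p of 0.0555 (range over 16 alternatives 1.72e-08 to 0.17). TWIST2, the paralogue of TWIST1, was not called: its values were 383 and 295 in vehicle and 464 and 331 in octanoate. It was called without octanoate 2 (0.46, adjusted p = 0.00482), and its sign turned without octanoate 1 (-0.025, adjusted p = 0.927).

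Of 20 tested genes of the epithelial programme, which the EMT factors repress in epithelia, 4 rose and 2 fell, with a median of 0.03. CLDN4, a tight junction claudin, had 1919 and 1835 normalised counts in vehicle and 4212 and 3913 in octanoate. It rose 2.16-fold (log2 1.11, limma adjusted p = 2.03e-12). DSP rose from 1376 and 1457 to 1963 and 2199 (log2 0.55, adjusted p = 2.03e-06), and the repressor gene OVOL2 rose at low counts, from 36.3 and 31.0 to 65.5 and 63.9 (0.93, adjusted p = 0.00489). OVOL2 was not called with DESeq2 on the recovered reads (0.105) or without the filter (0.0536), in a range over 15 alternatives of 0.00142 to 0.105. PKP3, a desmosomal plakophilin, fell by 0.35 (adjusted p = 0.000996). A further pair of calls lies outside the naming rule and was picked with its values in view: OCLN, occludin, rose (12.8 and 20.3 against 30.8 and 49.9) and ESRP1, an epithelial splicing factor, fell (31.4 and 29.1 against 17.3 and 11.9). OCLN lost its call without vehicle 1 (0.0889) or octanoate 2 (0.181) and ESRP1 without vehicle 1 (0.149), vehicle 2 (0.0933) or octanoate 2 (0.201), the highest adjusted p over the alternatives being 0.181 and 0.201 and the lowest 0.00134 and 0.0155. Without vehicle 1, 3 of the 20 were called, and PKP3 was not (0.0623, range 2.58e-08 to 0.159). Another 7 genes of the list were below the filter, among them CLDN3 with at most 3.85.

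Of 8 genes of the cadherin-catenin complex 3 rose and 1 fell, with a median of 0.12. CTNND1, the p120 catenin that stabilises cadherins at the membrane, had 20447 and 20021 normalised counts in vehicle and 16531 and 17117 in octanoate, a fall of 0.27 (log2 -0.27, limma adjusted p = 0.000733). MLLT4, the older symbol of the afadin gene AFDN, rose from 1883 and 1862 to 2657 and 2887 (log2 0.56, adjusted p = 3.88e-07). NECTIN2 (0.24, adjusted p = 0.0104) and PLEKHA7 (0.25, adjusted p = 0.0485) were also called. Without vehicle 2 or octanoate 1, 2 of the 8 were called. NECTIN2 then had adjusted p values of 0.192 and 0.141 (range 1.87e-05 to 0.218), and PLEKHA7 lost its call whichever library was left out (0.127 to 0.18, with a range over all alternatives of 0.0139 to 0.225). CTNNB1, beta-catenin, was not called, at 42124 and 40702 in vehicle and 39472 and 38165 in octanoate.

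Among 14 other tested cadherins 2 rose and 2 fell, with a median of -0.25. CDH13, a cadherin anchored by a lipid tail, had 9137 and 8382 normalised counts in vehicle and 10669 and 11086 in octanoate (log2 0.31, limma adjusted p = 0.000232). CDH19, a neural crest and Schwann cell cadherin, fell from 5313 and 5355 to 4009 and 3788 (-0.45, adjusted p = 2.12e-06). CDH12 (0.19, adjusted p = 0.0444) and CDH11 (-0.52, adjusted p = 0.0467) passed narrowly. Without vehicle 2 or octanoate 1 the list held 2 calls. CDH12 lost its call without vehicle 2 (0.376), octanoate 1 (0.0604) or octanoate 2 (0.217), and CDH11 lost its call whichever library was left out (0.0636 to 0.215) and with TMM factors (0.0515), edgeR (0.054) and DESeq2 (0.305). Over the 16 alternatives the adjusted p ranged from 0.00324 to 0.376 for CDH12 and from 0.0284 to 0.305 for CDH11.

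Of 11 tested genes of the fibronectin matrix and its receptors 1 rose and 4 fell, with a median of -0.04. ITGA5, the alpha chain of the main fibronectin receptor, had 13622 and 12597 normalised counts in vehicle and 16293 and 16086 in octanoate (log2 0.31, limma adjusted p = 0.000241). Its direction was opposite to that of FN1. ITGA4, a chain of another fibronectin-binding integrin, fell by 0.27 (adjusted p = 0.000798). The matrix gene FBN1, fibrillin, fell by 0.50 (adjusted p = 5.58e-07). TGFBI, a matrix protein induced by TGF-beta, fell from 10306 and 9073 to 4859 and 4796, which is 0.499 of the vehicle level (adjusted p = 8.74e-12). LOXL2, a matrix cross-linking enzyme picked with its values in view, fell by 0.25 (adjusted p = 0.00173). The integrin partner ITGB1 was not called (0.14, limma adjusted p = 0.0747), at 34960 and 34424 against 37960 and 38312. Under 4 of 16 alternatives ITGB1 was called higher, DESeq2 on the recovered reads among them (adjusted p = 0.0237).

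Of 11 tested intermediate filament and linker genes other than VIM 4 rose and 3 fell, with a median of 0.12. SYNM, which encodes synemin, a filament protein that assembles with vimentin, had 6101 and 5852 normalised counts in vehicle and 2035 and 2176 in octanoate, 0.352 of the vehicle level (log2 -1.51, limma adjusted p = 3.44e-15). The nuclear lamin LMNB1 fell by 0.50 (adjusted p = 2.92e-07). NEFL, a neurofilament chain, rose by 0.32 (adjusted p = 0.000287) and PLEC, the linker plectin, by 0.23 (adjusted p = 0.00577). NES and DES rose and LMNB2 fell as well, picked with their values in view. NES lost its call without vehicle 2 (0.123), octanoate 1 (0.147) or octanoate 2 (0.177), DES without vehicle 1 (0.197), octanoate 1 (0.154) or octanoate 2 (0.147), and LMNB2 without vehicle 1 (0.183) or octanoate 2 (0.278). The lowest adjusted p over the alternatives was 0.000517 for NES, 0.0171 for DES and 4.05e-05 for LMNB2. Without octanoate 1 or octanoate 2 the list held 4 and 3 calls, and PLEC had an adjusted p of 0.0675 and 0.0573 (range 1e-05 to 0.107).

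TGF-beta signalling is a classical inducer of the Snail and ZEB genes. Of 15 tested genes of that pathway 3 rose and 4 fell, with a median of -0.03. The ligand gene TGFB2 fell from 167 and 182 normalised counts to 66.4 and 61.8 (log2 -1.43, limma adjusted p = 3.93e-07). The related ligand subunit gene INHBA, of activin A, rose from 12322 and 11737 to 32430 and 34195, 2.77-fold (adjusted p = 1.40e-15). LTBP1, which binds latent TGF-beta, rose from 651 and 591 to 866 and 868 (log2 0.48, adjusted p = 0.000102). TGFB3, the coreceptor gene TGFBR3 and the inhibitory SMAD7 fell too, picked with their values in view. TGFB3 lost its call without vehicle 2 (0.0543, range over alternatives 0.000399 to 0.0694), SMAD7 without vehicle 1 (0.267) or octanoate 2 (0.238, range 0.000188 to 0.267), and TGFBR3 whichever library was left out (0.0843 to 0.13, with a range over all alternatives of 0.00713 to 0.179). With the replicate number as a block 11 of the 15 were called.

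The corepressors and turnover factors of the Snail and ZEB proteins had a median absolute difference of 0.10, beside 0.19 over all tested genes. All tested genes include many of low counts, and the median at the count level of this list was not computed. Of the 12 tested genes of this list none rose and 2 fell, with a median of -0.09. HDAC1, a deacetylase recruited by Snail, had 20928 and 19682 normalised counts in vehicle and 18306 and 17963 in octanoate (log2 -0.16, limma adjusted p = 0.0335), and SUZ12, a Polycomb subunit, fell by 0.15 (adjusted p = 0.0442). EZH2, a Polycomb methyltransferase, narrowly missed the call (-0.15, limma adjusted p = 0.0521), so it did not differ clearly from SUZ12. GSK3B, a kinase that marks Snail for degradation, was not called (0.13, limma adjusted p = 0.0857). No gene of the list was called without vehicle 1, octanoate 1 or octanoate 2, and 1 was without vehicle 2. Over 16 alternatives the adjusted p ranged from 0.000503 to 0.222 for HDAC1 and from 0.00128 to 0.27 for SUZ12.

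On the melanocyte side, where ZEB2 and SNAI2 are placed in melanoma, 1 of 7 tested genes rose and 1 fell, with a median of -0.12. MITF, the master regulator of melanocytes, had 3533 and 3330 normalised counts in vehicle and 2414 and 2511 in octanoate (log2 -0.48, limma adjusted p = 2.33e-06). MITF thus fell beside ZEB2 and opposite to SNAI2. PMEL, a melanosome protein, rose at low counts from 65.8 and 65.9 to 98.2 and 95.4 (0.55, adjusted p = 0.0289), and it lost its call whichever library was left out (adjusted p 0.0846 to 0.125, with a range over all alternatives of 0.0161 to 0.247). PAX3 and DCT were not called (0.13 and -0.83).

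Markers of other cell types were measured as well, since CDH3, FN1 and VIM are found in several. KRT14, a keratin of basal keratinocytes, had 1110 and 942 normalised counts in vehicle and 266 and 218 in octanoate (log2 -2.08, limma adjusted p = 2.40e-13). It made up nearly all of the sum of 5 keratinocyte markers, which was 961 to 1135 in vehicle and 228 to 274 in octanoate. KRT1 was at 0 in every library, and KRT5 and TP63 were at 12.8 or less. The sum of 5 fibroblast markers was 2352 to 2396 in vehicle and 2056 to 2168 in octanoate, with COL1A1 and COL1A2 lower among the 5. That of 4 endothelial markers was 576 to 580 and 787 to 792, with PECAM1 and VWF higher among the 4. The sum of 4 leukocyte markers was 597 to 665 and 722 to 774, nearly all of it LYZ, the 1 called of the 4. CD3E was at no more than 2.91. The calls of COL1A2 (ended without vehicle 2, adjusted p 0.387, or octanoate 1, 0.208), VWF (ended whichever library was left out, 0.111 to 0.21) and LYZ (ended without vehicle 2, 0.23, or octanoate 2, 0.185) were not stable, with ranges over the alternatives of 0.0123 to 0.387, 0.0304 to 0.308 and 0.00329 to 0.23. The part of these cell types in the changes of the 10 genes was not tested.

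For the 3 members with the smallest p, the genes with the nearest pattern over the 4 libraries were found by the Euclidean distance of log2 values centred on their mean, among 13481 genes averaging 100 or more normalised counts. Nearest to CDH3 were ANKRD55 (distance 0.0847), LURAP1L (0.125) and PAQR5 (0.156). LURAP1L went from 137 and 107.5 to 336 and 367 normalised counts. Nearest to CDH2 were CCNB2 (0.00642), SPAG5 (0.00699) and RP11-517B11.7 (0.0092), and nearest to ZEB2 were FANCB (0.0205), AIM1 (0.0311) and C5orf51 (0.0332). With 4 libraries in 2 groups, a short distance mostly reflects a like difference between the groups.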

How the data were processed

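RNA of 2 vehicle and 2 octanoate libraries was sequenced. Per the submitters' processing notes, bcl2fastq 2.17, Trim Galore, STAR 2.4, Picard, HTSeq 0.9.1, DESeq2 and build hg38 were used; the annotation and strand setting are not given in the sources used here. The deposited table holds a signal per gene, a normalised count. All its positive values (100% in each library, tolerance 0.001) were whole multiples of 1 read, which gave back whole reads. A second deposited table holds the authors' log2 fold changes, their standard errors, test scores and p-values.

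Genes with a mean of at least 10 entered a limma fit (version 3.58.1, R 4.3.3) of log2(value + 1), with an intensity trend and treatment as the only term. The two-sided p-values were adjusted by Benjamini-Hochberg over 20250 genes, with calls under 0.05. Alternatives were pseudocounts 0.5 and 5, no filter or a mean of 50, TMM factors, equal column totals, no trend, a replicate block, leaving out each library, removing GC and length trends, GENCODE 29 genes only (chosen after seeing the data), and edgeR 4.0.16 (5957 genes called) and DESeq2 1.42.0 on the recovered reads. A lone library was taken to vary like the other group. The members and lists were chosen with earlier results of these data known. Named were the 10 genes, the 4 genes of each list with the smallest p, and for 3 members the 3 genes of nearest pattern. A named gene of the TGF-beta list is not reported here. Positions and lengths came from GENCODE 29 by symbol, promoters from RefSeq, and shared sequence from blastn 2.17.0 (95% identity over 100 bases). The fit was also run on simulated counts in which far fewer genes changed than were called here. Its outcome is not reported here and is not used as support for the calls.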

Additional observations from a re-analysis of the deposited data

How the results depend on the processing

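The count of 6048 genes called fell to 2595 without the filter and to 1625 without the intensity trend, and was 4295 to 4757 with 1 library left out. Of the 10 genes, 8 were called, 4 without the filter (ZEB2, CDH2, CDH3, FN1), 1 without the trend, 6 to 7 with 1 library left out, 6 with DESeq2 on the recovered reads, and 8 under each of the others. The sign of CDH1 reversed to 0.07 without vehicle 1 and 0.42 without octanoate 1 (range with 1 library left out -0.65 to 0.42), that of CDH5 to 0.31 without octanoate 1 (-0.92 to 0.31) and that of CD14 to -0.033 without vehicle 2 (-0.033 to 0.53). TWIST2 reversed to -0.025 without octanoate 1 (-0.025 to 0.46). Without the filter the calls were 3 of other EMT factors, 2 epithelial, 2 cadherin-catenin, 2 other cadherins, 4 filament genes, 4 TGF-beta genes, 0 corepressors and 1 on the melanocyte side. Without the trend they were 2, 2, 1, 1, 2 and 3 in the same lists up to TGF-beta, 0 corepressors, and 2 of the fibronectin matrix. With DESeq2 there were 3 epithelial, 2 other cadherins, 4 TGF-beta and 1 melanocyte call. Corepressor calls were 0 with TMM factors and with edgeR, 4 with equal totals and 6 with GC and length trends removed, which gave 4 on the melanocyte side. With 1 library left out, calls ranged from 3 to 7 (epithelial), 2 to 3 (cadherin-catenin), 2 to 3 (other cadherins), 3 to 6 (filaments), 0 to 1 (corepressors) and 1 to 2 (melanocyte side). With the replicate number as a block 8376 genes, the same 8 of the 10, 11 TGF-beta genes and 6 corepressors were called. The deviations of same-numbered libraries correlated at 0.27 over genes, the labels do not say what the numbers mark, and with 2 pairs the pairing could not be settled. The causes of these changes were not tested. With the longest transcript as length, an alternative chosen after seeing the data, the ratio of CDH2 to CDH3 in octanoate was 50.01, that of ZEB1 to ZEB2 was 1.714 in vehicle and 2.525 in octanoate, and that of TWIST1 to SNAI2 in octanoate was 15.26. Over 250 upstream bases alone, also chosen after seeing the data, 17.5% of promoter windows held an E-box. The GC and length check covered only the 74.8% of tested genes with a GENCODE 29 entry, all 10 members among them, and the rest were not checked. Over those 15141 genes 5441 were called before the trends were removed and 7183 after. Depth limits CDH1, with 7 to 14 reads per library.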
